A study of Mus musculus and Mus musculus musculus x Mus musculus castaneus with 52 samples.

Results

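The RNA of 3 male (XY) induced pluripotent stem cell (iPSC) lines of Mus musculus, LV4, LV8 and LV16, was read once at passage 7 (P7) and once at passage 13 (P13). These 6 libraries were chosen by their line and passage labels, out of 52 samples in the series, of which 32 are RNA samples. All 6 are labelled male, wild type and undifferentiated, so apart from passage they differ by label only in line and sequencing index, and each line at P13 was compared with itself at P7. The same series holds 3 XX lines, LV20, LV21 and LV22, at the same passages, and its design text calls them XX at the early and XO (with a single X chromosome) at the late passage. These 6 XX libraries served to estimate the spread of line-specific changes and to show where the XY lines differed, and the embryonic stem cell and chromatin samples were not used. Reprogramming method, clonality and growth conditions of the RNA samples are not given in the labels. For the chromatin samples of the series they name male wild-type feeder cells and a serum and LIF medium.

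Induced pluripotent stem cells are somatic cells returned by reprogramming factors to a state like that of the early embryo, held by a network around Pou5f1, Sox2 and Nanog. In serum they depend on LIF, a cytokine acting through the kinases Jak1 and Jak2 and the factor Stat3, and they are often grown on inactivated embryonic fibroblasts, so that a bulk library can hold RNA of both. Residual expression of donor cell genes is known to fade as such lines are passaged.

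Library totals ran from 8309171 to 14245900 reads over the 6 XY libraries. Levels are log2 CPM (reads scaled to library size) with an offset of 0.183 CPM added by the authors, so that a gene without reads stands at -2.45, and a fold change of a low gene is understated. In the XY lines all P7 libraries carried a sample index of 6 bases and all P13 libraries one of 8 bases, so index and passage cannot be told apart within them. The XX lines LV21 and LV22 carried 8 bases at both passages, whereas LV20 went from 6 to 8 bases as the XY lines did. Because of LV21 and LV22, changes of the XX lines are given beside many of the results. Counts of genes called in the XX lines include LV20 and so are not free of the index change. Each line was read once per passage, so every test below rests on the spread between lines.

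The sex-linked genes did not go against the labels. The 5 Y-linked genes tested, among them Ddx3y, Eif2s3y, Kdm5d and Uty, gave between 1437 and 2088 reads per XY library together, and none passed limma's test (0 at an unadjusted p under 0.05, 0 by voom). Ddx3y stood at 6.23, 5.48 and 5.55 log2 CPM at P7 and at 5.70, 5.54 and 5.73 at P13 in LV4, LV8 and LV16. Xist, the RNA that silences an X chromosome in female cells, had 5 reads over the P7 and 19 over the P13 libraries. The 10 pluripotency markers summed to between 2741 and 3264 CPM in every XY library, with none at 0.

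In total 13978 genes averaged 1 CPM or more across the 12 iPSC libraries and were tested, and 2096 of them (15.0%) changed from P7 to P13 at an adjusted p under 0.05, referred to as called. Of these, 1143 rose (8.18%) and 953 fell (6.82%). The median change over all genes tested was -0.003 on the log2 scale. Changes of at least 2-fold were more often increases, with 511 up and 205 down, and at least 4-fold changes were 180 up and 22 down. Among the called genes 2083 moved the same way in all 3 lines, which the call itself largely fixes, and among all genes tested 7433 did (53.2%). The values at P7 and P13 did not overlap for 5072 of the 13978 genes (36.3%), which is the background for that property. The number of calls depended on the lines. Without LV4 482 genes were called and without LV8 75, against 2017 without LV16. In each of those refits 5 of the 6 iPSC lines remained, and 466, 75 and 1563 of the 2096 genes were called again.

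**Figure D1:**
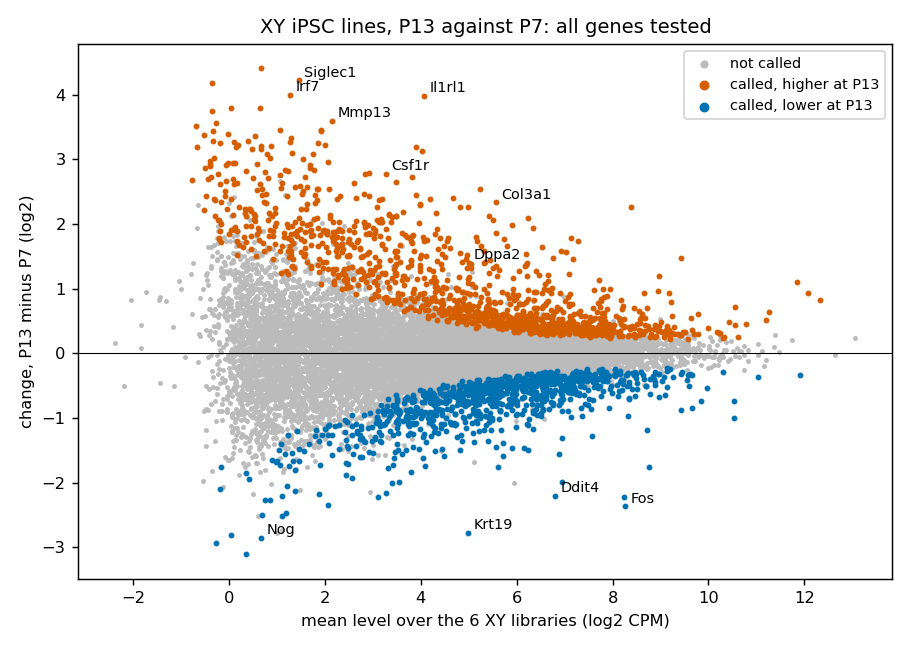
Log2 change from P7 to P13 in the 3 XY lines (vertical axis) against mean log2 CPM over the 6 XY libraries (horizontal axis), 1 point per gene tested, with the 1143 increases and 953 decreases that passed the test in colour. The increases reach further from 0 than the decreases, as the 180 against 22 changes of at least 4-fold show.

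The 15 largest increases that met the rule for named genes (no overlap between passages, the same direction in all lines, at least 4 CPM at P13) were Ifi44, Siglec1, Ifit3b, Irf7, Il1rl1, Ifit3, Mmp13, Ccl9, Masp1, Cd36, Entpd1, Col10a1, Pi15, Olr1 and Samd9l. They hold genes induced by interferon, genes of macrophages and genes of the extracellular matrix. Il1rl1, the receptor of interleukin-33, stood at 2.27, 1.76 and 2.22 log2 CPM at P7 in LV4, LV8 and LV16 and at 6.76, 6.16 and 5.26 at P13. All 3 lines moved up by more than the spread within either passage, with a log2 change of 3.98 (SE 0.43, adjusted p = 0.00145). Mmp13, a collagenase, rose from 0.12, 0.78 and 0.13 to 4.61, 4.32 and 2.90 (log2 change 3.60, SE 0.43, adjusted p = 0.00182). Cd36, a scavenger receptor, rose from 29 reads over the P7 libraries to 424 over the P13 libraries. Masp1, a protease of the complement system, rose from 15 to 227 reads. Ifit3b had 0 reads in all P7 libraries and 66, 63 and 9 in LV4, LV8 and LV16 at P13. Its reads can be shared with Ifit3, a close copy, so its own level is uncertain. Il1rl1, Mmp13, Ccl9 and Siglec1 kept the call whichever line was left out.

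The 15 largest decreases by the same rule, with the minimum level taken at P7, were Nog, Krt19, Myh7, Rnf43, Fos, Pdlim3, Zc3h6, Fosb, Neurl1b, Ddit4, Slc39a8, Ndufa4l2, Kcnq3, Slc15a2 and Trim67. Krt19, a keratin of simple epithelia, stood at 6.41, 6.79 and 5.92 log2 CPM at P7 and at 4.30, 3.91 and 2.60 at P13. Every line fell by more than 2 on the log2 scale, and the passages did not overlap (log2 change -2.77, SE 0.37, adjusted p = 0.00266). Without LV8 its adjusted p was 0.051. Other keratins of that group moved with it. Krt8, Krt18 and Krt7 fell by 1.58, 1.49 and 1.36 on the log2 scale. In the list of trophoblast and simple epithelium 5 of 14 genes tested fell, which were these keratins and the tight-junction gene Cldn4, and 1 rose, the factor Tfap2a. The trophoblast regulators Gata3, Hand1 and Eomes did not pass the test, with log2 changes of 1.71, -0.53 and -0.45. The list's median was -0.49, against -0.003 over all genes, and by line -0.11 in LV4, -0.34 in LV8 and -0.97 in LV16. Leaving out LV4, LV8 and LV16 in turn left 3, 1 and 2 of its genes called lower. In the XX lines 2 of the 14 genes fell and none rose, with medians of -0.33, -0.10 and -0.49 in LV20, LV21 and LV22.

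Genes of fibroblasts were higher at P13 in all 3 lines. Of 32 genes of the fibroblast and feeder list 23 rose and none fell, with a median log2 change of 1.54. Of the 12 defining markers 7 rose, and all 12 were higher at P13 in each line. Col3a1, a fibrillar collagen, stood at 4.65, 4.16 and 4.37 log2 CPM at P7 and at 7.53, 7.07 and 5.58 at P13. Both LV4 and LV8 rose about as far, LV16 less (log2 change 2.33, SE 0.34, adjusted p = 0.00397). Prrx1, a factor of limb and connective tissue mesenchyme, rose from 3.95, 3.23 and 3.84 to 6.60, 6.11 and 5.10. Dcn, a proteoglycan that binds collagen, rose from 2.43, 1.70 and 2.04 to 4.85, 4.16 and 3.33 (log2 change 2.06, SE 0.27). Col6a3 and Cdh11 rose by 2.27 and 2.38. The markers Mmp2, Twist1, Twist2, Pdgfrb and Postn did not pass the test, at log2 changes of 0.49, 0.77, 1.51, 1.13 and 0.89.

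The summed level of the 12 fibroblast markers was 281, 281 and 270.3 CPM at P7 in LV4, LV8 and LV16. At P13 it was 1350, 922 and 491 CPM, which is 4.81, 3.28 and 1.82 times as much. The P7 libraries were alike, and the lines separated only at P13. The XX lines moved the same way, by 2.80 times in LV20, 1.36 in LV21 and 4.25 in LV22. In the XX lines, whose own cells carry no Y chromosome by their label, the 5 Y-linked genes tested gave 81, 48 and 56 reads at P7 in LV20, LV21 and LV22 and 163, 91 and 179 at P13. Their summed CPM rose 1.99, 1.69 and 4.57 times, with 1 or 2 of the 5 genes at 0 in each of these libraries but LV20 at P13. The comparison of Y-linked reads in the XX lines was added after the values had been seen. In a bulk library, more cells of a type and more RNA per cell cannot be told apart. Of the 32 genes 9, 1 and 24 were called higher without LV4, LV8 and LV16 in turn, and Col6a3 kept its call in each case.

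Markers of blood cells and macrophages were also higher. Of 15 defining markers 14 were in the table, 11 rose and none fell, with a median log2 change of 2.02. Csf1r, the receptor of the macrophage growth factor CSF1, stood at 2.36, 1.70 and 1.59 log2 CPM at P7 and at 5.34, 5.15 and 3.48 at P13. No P13 library came near the P7 range (log2 change 2.77, SE 0.29, adjusted p = 0.00145), and the call held whichever line was left out. Itgam, an integrin of myeloid cells, rose from 0.72, 2.64 and 1.72 to 4.68, 4.25 and 3.46. Aif1, a macrophage calcium-binding protein, had 4 reads at P7 and 64 at P13. The complement gene C1qa and the leukocyte phosphatase Ptprc, named here after their values were seen, rose by 2.64 and 1.93. Cd68, Cd14 and Fcer1g did not pass the test, with log2 changes of -0.07, 1.21 and 2.02. Kit, which blood progenitors share with pluripotent and germ cells, is in the wider list of 22 genes and fell by 0.67 (adjusted p = 0.00438).

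These markers summed to 110, 162 and 114 CPM at P7 and to 588, 411 and 197 CPM at P13 in LV4, LV8 and LV16. LV4 gained most (5.34 times) and LV16 least (1.73 times), the same order of lines as for the fibroblast markers. A single marker was at 0 in 1 library, LV8 at P7. The sum rose in the XX lines by 3.26, 1.64 and 3.50 times in LV20, LV21 and LV22. Of the 14 markers 4, 3 and 13 were called higher without LV4, LV8 and LV16 in turn. Siglec1, a sialic acid receptor of macrophages that interferon also induces, rose from 15 reads over the P7 libraries to 466 at P13. The endothelial list held 8 genes tested, none of which was called by limma (1 at an unadjusted p under 0.05, 0 by voom). Its 7 defining markers in the table summed to between 41.8 and 55.3 CPM over the 6 libraries.

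**Figure D2:**
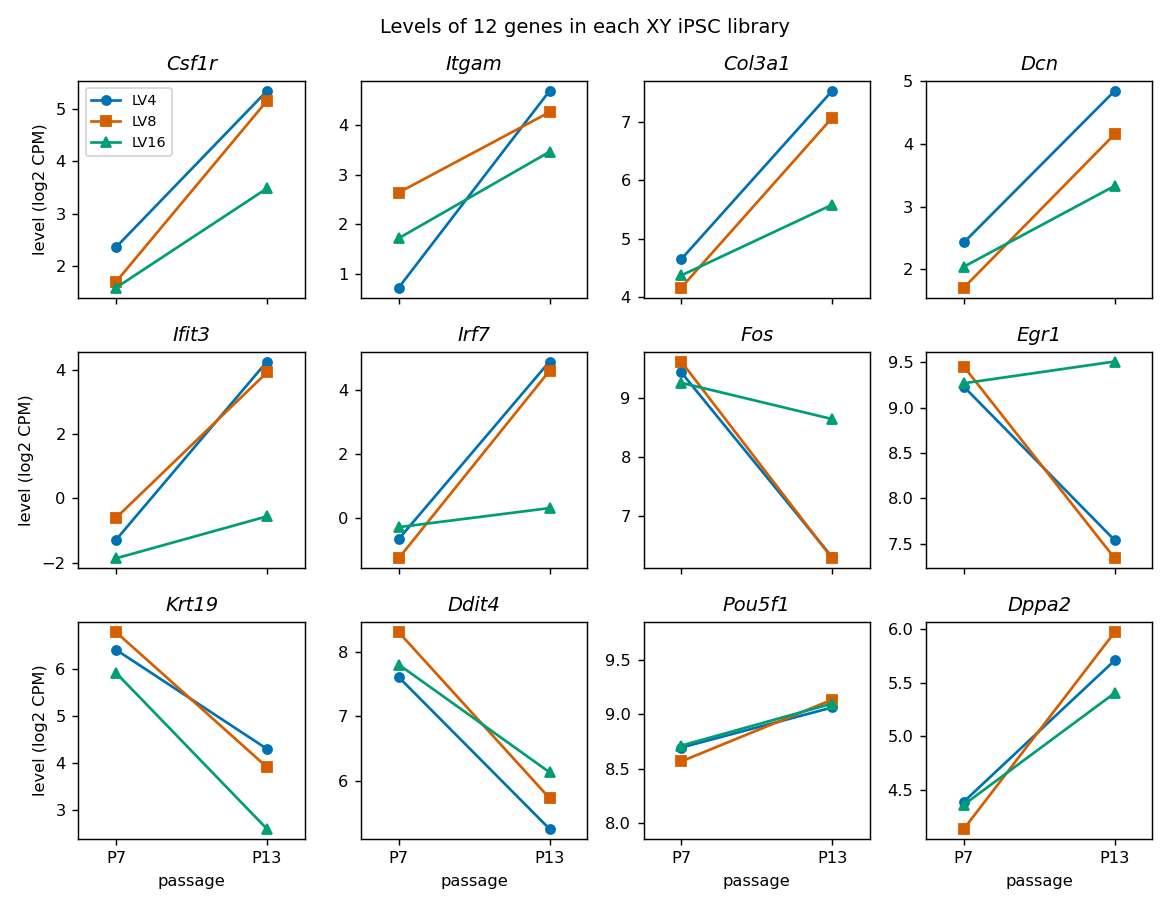
Log2 CPM of 12 genes (vertical axes, each with its own range) at P7 and P13 in each XY library, with 1 line of points per cell line. Csf1r, Itgam, Col3a1 and Dcn rise in all 3 lines, and Ifit3, Irf7, Fos and Egr1 move further in LV4 and LV8 than in LV16. Krt19 and Ddit4 fall and Pou5f1 and Dppa2 rise in all lines, by unequal amounts.

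The interferon pathway was examined by role. Type I interferons bind the receptor of Ifnar1 and Ifnar2, the kinases Jak1 and Tyk2 then act on factors such as Stat2, which joins Irf9 to bind interferon-stimulated response elements (ISRE) before the target genes. The 9 interferon genes of the ligand list were not analysed here. Among 15 receptor and signalling genes tested, 2 passed the test, among them Jak2, which fell, and the median was 0.01. Ifnar1 stood at 5.77, 5.81 and 5.97 log2 CPM at P7 and at 6.20, 6.19 and 6.09 at P13, with an adjusted p of 0.097. Ifnar2, Jak1, Tyk2 and Irf3 had log2 changes of 0.01, -0.04, -0.06 and 0.04 and did not pass the test. Irf9 was higher in LV4 and LV8 only, at 3.35, 3.59 and 3.73 at P7 and 4.90, 4.93 and 3.40 at P13. Its adjusted p was 0.0827.

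Of 42 interferon-stimulated genes tested 20 rose and none fell, with a median log2 change of 1.27. The lines were unlike, with medians of 1.82 in LV4, 1.90 in LV8 and 0.19 in LV16. Irf7, the factor that amplifies interferon production, stood at -0.66, -1.25 and -0.28 log2 CPM at P7 and at 4.88, 4.60 and 0.31 at P13. LV4 and LV8 rose by over 5 on the log2 scale and LV16 by 0.59. Its log2 change over the lines was 3.99 (SE 0.85, adjusted p = 0.0133), and without LV4 or LV8 the adjusted p was 0.109 and 0.158. Ifit3, whose product binds viral RNA together with Ifit1, had 7 reads at P7 and 342 at P13. Ifit1 stood at 0.51, 0.02 and 0.13 log2 CPM at P7 and at 4.51, 3.86 and 1.52 at P13. Ifi44 had 7 reads at P7 and 369 at P13. Ifi27 and Oas2, an activator of RNA decay, rose by 3.22 and 2.55. Sp100, a component of nuclear bodies, had 1 read at P7 and 112 at P13. The exact 95% interval of that ratio runs from 16.4 to 3711 and covers counting error only.

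Several known targets did not pass the test, and in these LV16 stood apart from LV4 and LV8. Isg15, a ubiquitin-like modifier, stood at 1.92, 1.65 and 0.35 at P7 and at 4.61, 3.67 and 0.74 at P13 (log2 change 1.70, adjusted p = 0.0679). Rsad2, the antiviral protein viperin, was at 1.15, 1.81 and 0.45 and then at 2.82, 2.45 and -0.06 (adjusted p = 0.374). Xaf1 changed by 2.45 and 2.06 in LV4 and LV8 and by -0.91 in LV16. Ddx60 changed by 0.99, 0.98 and -1.73 in LV4, LV8 and LV16. Without LV16, 27 of the 42 targets were called higher, and without LV4 and LV8, 5 and 1. Of the 42 targets 24 rose in the XX lines, with medians of 2.07, 1.02 and 1.51 in LV20, LV21 and LV22. Siglec1 is in this list and in the wider macrophage list, and the marker sums of fibroblasts and macrophages were likewise lowest in LV16 at P13. Their part in the interferon genes was not tested.

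The promoters of 4 of these genes show the element itself. The 250 bases before the start of each gene are taken from RefSeq (GRCm38.p6), read 5′ to 3′ along the gene, with capitals marking the core GAAANNGAAA on either strand. Ifit3 and Ifit1 rose, Isg15 and Rsad2 did not pass the test.
Ifit3 (chr19:34583279-34583528, plus strand): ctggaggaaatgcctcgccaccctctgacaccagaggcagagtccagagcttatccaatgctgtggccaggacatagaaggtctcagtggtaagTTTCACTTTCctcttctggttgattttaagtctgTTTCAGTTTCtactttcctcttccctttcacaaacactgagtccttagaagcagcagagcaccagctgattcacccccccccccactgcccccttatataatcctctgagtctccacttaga
Ifit1 (chr19:34640639-34640888, plus strand): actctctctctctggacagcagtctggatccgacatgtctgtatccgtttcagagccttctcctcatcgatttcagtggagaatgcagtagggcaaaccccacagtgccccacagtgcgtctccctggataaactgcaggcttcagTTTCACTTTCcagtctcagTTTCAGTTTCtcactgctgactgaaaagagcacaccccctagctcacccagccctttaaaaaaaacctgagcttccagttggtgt
Isg15 (chr4:156200819-156201068, minus strand): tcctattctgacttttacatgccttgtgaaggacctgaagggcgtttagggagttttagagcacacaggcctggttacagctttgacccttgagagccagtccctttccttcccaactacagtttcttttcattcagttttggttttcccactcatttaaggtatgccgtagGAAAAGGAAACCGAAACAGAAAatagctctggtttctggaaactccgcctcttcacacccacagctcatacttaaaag
Rsad2 (chr12:26456453-26456702, minus strand): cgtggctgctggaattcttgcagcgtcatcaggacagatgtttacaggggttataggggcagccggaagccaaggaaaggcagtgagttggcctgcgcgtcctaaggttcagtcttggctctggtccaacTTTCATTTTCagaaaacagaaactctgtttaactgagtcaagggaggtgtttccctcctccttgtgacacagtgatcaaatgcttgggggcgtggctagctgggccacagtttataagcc

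Ifit3 and Ifit1 each hold 2 copies of the core, the last of them 122 and 85 bases before the start. Isg15 holds 3 overlapping copies within 78 bases of the start, and Rsad2 a single one. The core was in 2.98% of 32851 RefSeq promoters of this length, overlaps with other motifs not counted. Of the 42 targets tested 32 had a promoter in the table, and 9 of these held the core, in 9 of their 37 promoters (24.3%). It was in 4 of the 15 called genes with a promoter (Ifit1, Ifit3, Oas1a and Trim30a) and in 5 of the 17 that were not called (Isg15, Rsad2, Oas3, Bst2 and Ddx60). A match describes these letters and does not show binding.

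Some sensors of foreign nucleic acid and some antigen presentation genes rose. Of 19 sensing genes 4 rose and none fell (21.1% called, against 15.0% of all genes). Ddx58, which encodes the RNA sensor RIG-I, stood at 6.16, 5.81 and 6.06 log2 CPM at P7 and at 7.98, 7.77 and 6.71 at P13 (log2 change 1.47, SE 0.24, adjusted p = 0.00518). Tlr7, an endosomal RNA receptor of immune cells, had 5 reads at P7 and 57 at P13, and Ifi204 rose by 2.92. The adaptor Mavs, the kinase Tbk1 and the DNA sensor Mb21d1 did not pass the test, with log2 changes of -0.33, -0.00 and 0.18. Of 24 guanylate-binding and antigen presentation genes 5 rose and none fell (20.8% called). The list as a whole did not shift upward, since its median was -0.12, with 7 genes higher and 10 lower in all 3 lines. With the 6 XY libraries alone 5 of its genes were called higher and 5 lower, and by voom 5 and 2. The 5 that rose were Tgtp1, Irgm1, Nlrc5, B2m and H2-D1, with B2m, the light chain of class I molecules, at 5.31, 5.86 and 5.39 and then at 7.53, 7.01 and 6.10. Irgm1 rose by 2.42 and 3.10 in LV4 and LV8 and by 0.07 in LV16. Without LV4 and LV8, 1 and 0 of these 24 were called, and of the sensors 1 and 0.

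**Figure D3:**
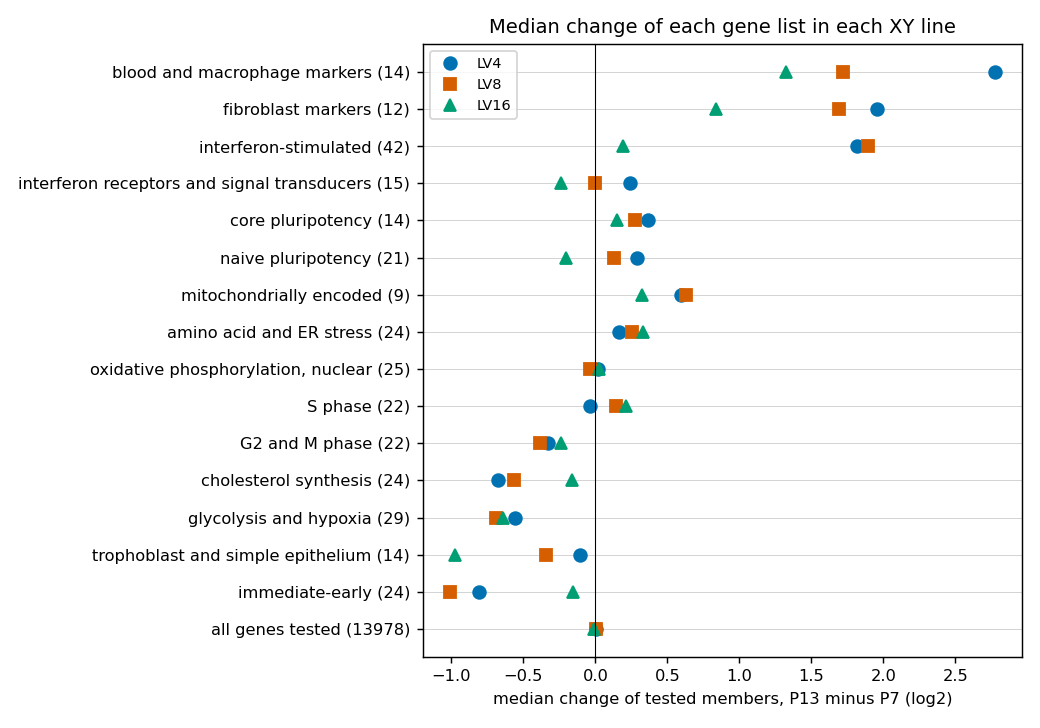
Median log2 change from P7 to P13 of the tested members of each gene list (number in brackets) in LV4, LV8 and LV16. Interferon-stimulated and immediate-early genes lie near 0 in LV16, at 0.19 and -0.15, and far from it in the other lines, while glycolysis and hypoxia genes lie at -0.56, -0.69 and -0.64 in LV4, LV8 and LV16.

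Immediate-early genes, which answer growth factors and stress within minutes, were lower at P13 in LV4 and LV8. Of 24 genes tested 12 fell and 2 rose, with a median of -0.77. Fos, which pairs with Jun as the transcription factor AP-1, stood at 9.43, 9.62 and 9.26 log2 CPM at P7 and at 6.30, 6.28 and 8.64 at P13. It fell by over 3 in LV4 and LV8 and by 0.61 in LV16 (log2 change -2.36, SE 0.40, adjusted p = 0.00555). Fosb, its close relative, stood at 9.26, 9.56 and 9.20 at P7 and changed by -2.76, -3.20 and -0.70 in LV4, LV8 and LV16. Jun fell in all lines, from 7.55, 8.38 and 7.84 to 5.67, 5.48 and 6.68 (log2 change -1.98, SE 0.24, adjusted p = 0.0021), and it kept the call whichever line was left out. Egr1, a zinc finger factor downstream of ERK signalling, was at 9.23, 9.45 and 9.27 and then at 7.54, 7.34 and 9.51, so that LV16 lay above its own P7 value and the passages overlapped. Egr2 fell by 3.07 and 3.32 in LV4 and LV8 and changed by 0.36 in LV16. The adjusted p of Egr1 was 0.0388 over all lines, and 0.217 and 0.32 without LV4 and LV8.

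The other decreases were Atf3, Btg2, Arc, Dusp1, Cyr61, Maff and Zfp36, by 0.70 to 1.29 on the log2 scale. The exceptions were Myc, a growth regulator, and the nuclear receptor Nr4a2, which rose by 0.93 and 2.13. Junb, Nr4a1 and Srf did not pass the test, with log2 changes of -0.29, -0.21 and 0.02. Of the 24 genes 12 also fell in the XX lines, with medians of -0.70, -1.33 and -0.80 in LV20, LV21 and LV22. LV21 and LV22 had 1 index length at both passages, and the part of the index in the XY change was not tested. With LV4, LV8 and LV16 left out in turn, 2, 1 and 13 genes were called lower.

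**Figure D4:**
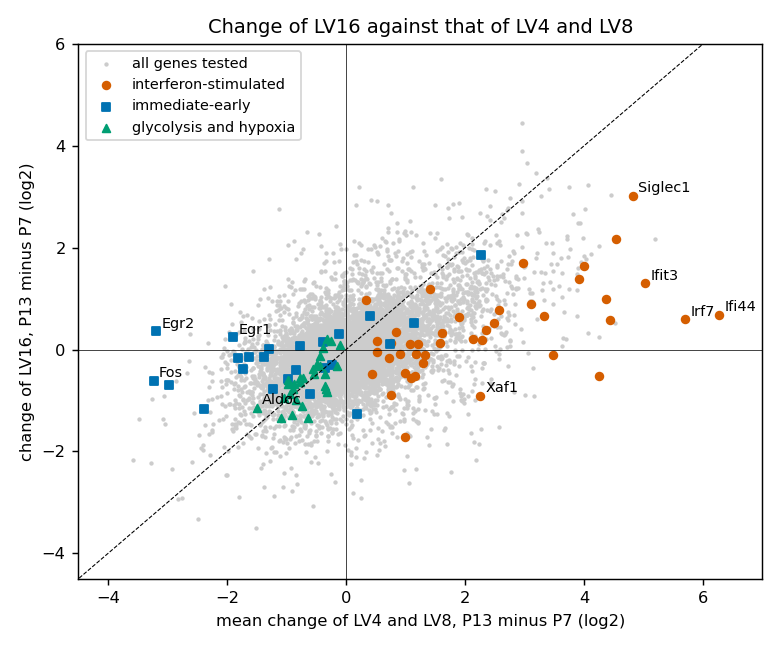
Log2 change from P7 to P13 in LV16 (vertical axis) against the mean change of LV4 and LV8 (horizontal axis), 1 point per gene tested, with a dashed line where both are equal. Interferon-stimulated genes such as Irf7 and Ifi44 lie far right near 0 of the vertical axis, Fos and Egr2 lie far left near 0, and glycolysis and hypoxia genes such as Aldoc lie along the dashed line.

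Genes of glycolysis and of the response to low oxygen fell in all 3 lines alike. Of 29 genes tested 17 fell and none rose, with medians of -0.56, -0.69 and -0.64 in LV4, LV8 and LV16. Slc2a3, a high-affinity glucose transporter, stood at 10.94, 11.13 and 11.00 log2 CPM at P7 and at 9.85, 10.14 and 10.06 at P13. The 3 lines fell by nearly the same amount (log2 change -1.01, SE 0.12, adjusted p = 0.00182). Aldoc, an aldolase, went from 6.10, 6.79 and 6.32 to 4.74, 5.14 and 5.18 (log2 change -1.38, SE 0.16). Both kept the call whichever line was left out. Bnip3, a mitophagy receptor induced by hypoxia, went from 5.88, 6.53 and 6.40 to 4.60, 5.61 and 5.05 (log2 change -1.18, SE 0.32, adjusted p = 0.0327). It lost the call whichever line was left out. Ndrg1 fell by 1.04. Ddit4, an inhibitor of mTOR induced by hypoxia and other stress, is not among these 29 genes and is counted with the p53 targets. It went from 7.61, 8.31 and 7.80 to 5.25, 5.73 and 6.13 (log2 change -2.20, SE 0.18, adjusted p = 0.00112), and held in every refit. Ndufa4l2, a hypoxia-induced protein of mitochondria, fell by 2.16 and, like Bnip3, lost the call whichever line was left out.

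Glycolytic enzymes did not all pass the test, with Gapdh, Pgk1 and Pkm at log2 changes of -0.15, -0.67 and -0.25, named here after their values were seen. In the XX lines the list was less uniform, with 2 genes lower and 1 higher, and medians of -0.50, 0.28 and -0.40 in LV20, LV21 and LV22. The part of the index was not tested here either. No gene of the list differed between XY and XX lines at the adjusted threshold, with Aldoc at an adjusted p of 0.0823 for the difference. Without LV4, LV8 and LV16 in turn 9, 3 and 14 genes were called lower.

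The hypoxia-inducible factors bind the core ACGTG, shown in capitals in the 250 bases before Bnip3 and Ddit4, which both fell in all lines.
Bnip3 (chr7:138909507-138909756, minus strand): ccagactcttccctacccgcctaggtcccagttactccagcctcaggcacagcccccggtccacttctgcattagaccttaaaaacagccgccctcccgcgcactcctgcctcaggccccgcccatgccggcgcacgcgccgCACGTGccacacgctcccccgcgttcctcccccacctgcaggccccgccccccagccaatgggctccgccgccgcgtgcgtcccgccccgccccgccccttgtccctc
Ddit4 (chr10:59951771-59952020, minus strand): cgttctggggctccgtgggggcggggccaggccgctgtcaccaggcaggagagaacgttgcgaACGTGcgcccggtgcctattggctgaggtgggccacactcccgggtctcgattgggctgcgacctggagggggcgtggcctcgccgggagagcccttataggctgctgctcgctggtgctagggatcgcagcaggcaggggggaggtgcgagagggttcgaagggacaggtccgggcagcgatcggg

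In Bnip3 the capitals hold 2 overlapping matches, 1 on each strand, 108 and 107 bases before the start. Ddit4, which is outside the list counted below, has 1 match at 187 bases. The core is short and was in 16.6% of the 32851 promoters. It was in 17 of the 38 promoters of tested list genes (44.7%). Counted by gene, it was in 15 of the 26 tested list genes with a promoter in the table, in 9 of the 14 called and 6 of the 12 not called.

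Cholesterol synthesis genes were lower. Of 24 tested 13 fell and none rose, with a median of -0.45. Hmgcs1, which starts the pathway, stood at 9.36, 9.28 and 9.29 log2 CPM at P7 and at 8.42, 8.49 and 8.99 at P13 (log2 change -0.68, SE 0.12, adjusted p = 0.00657). Every P13 value lay under the P7 range, with LV16 closest to it. Msmo1 and Fdps, enzymes of later steps, fell by 0.71 and 0.90, and Stard4, which carries cholesterol between membranes, by 0.86. Srebf2, the factor that drives these genes, fell by 0.45 and was named after its values were seen. By line the medians were -0.67, -0.57 and -0.17 in LV4, LV8 and LV16. Of 12 fatty acid synthesis genes 3 fell, among them the desaturases Scd1 and Scd2, and none rose (25.0% called, against 15.0% of all genes). Without LV4, LV8 and LV16 in turn 1, 0 and 14 cholesterol genes were called lower. Of the 24 genes 5 fell in the XX lines, with medians between -0.30 and -0.18.

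Mitochondrially encoded transcripts rose. Of 9 tested 6 rose and none fell, with a median of 0.51. The gene mt-Cytb, a subunit of complex III, stood at 11.44, 10.96 and 11.50 log2 CPM at P7 and at 12.54, 12.44 and 12.24 at P13 (log2 change 1.10, SE 0.11, adjusted p = 0.00145). The complex I subunits mt-Nd1, mt-Nd4 and mt-Nd5 rose by 0.93, 0.72 and 0.64, and all 4 kept their calls in every refit. The ribosomal RNA mt-Rnr1 did not pass the test, at -0.19. Of 25 nuclear genes of oxidative phosphorylation none was called by limma (0 at an unadjusted p under 0.05, 0 by voom), with a median of -0.01. In the XX lines the medians of the mitochondrial genes were 0.11, 0.13 and -0.08. The difference between XY and XX lines missed the threshold for each of them, with mt-Nd5 at an adjusted p of 0.0705.

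Genes of mitosis were slightly lower. Of 22 G2 and M phase genes 12 fell and none rose, with a median of -0.32. Mki67, a proliferation marker, stood at 9.77, 9.99 and 9.79 log2 CPM at P7 and at 9.29, 9.41 and 9.33 at P13 (log2 change -0.51, SE 0.07, adjusted p = 0.00294). The spindle genes Nusap1 and Bub1 fell by 0.64 and 0.57, and the kinase Aurkb by 0.49. Of 22 S phase genes 2 rose and none fell, Ccne1 and Ung, with a median of 0.06, and this share (9.09%) lay below the 15.0% of all genes. Among inhibitors of the cycle Cdkn1b fell by 1.04, from 5.47, 5.91 and 5.63 to 4.65, 4.70 and 4.53, and Cdkn2a rose by 1.23, from 1.92, 2.43 and 2.76 to 4.00, 3.66 and 3.15. In both cases the passages did not overlap. Of the 22 G2 and M genes 1 fell and none rose in the XX lines, with medians of -0.18, 0.06 and -0.15 in LV20, LV21 and LV22. The refits without LV4, LV8 and LV16 called 4, 0 and 12 G2 and M genes lower.

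The pluripotency network changed in part. Of 14 core genes 6 rose and 1 fell (50.0% called, against 15.0% of all genes). Pou5f1 stood at 8.69, 8.57 and 8.71 log2 CPM at P7 and at 9.06, 9.14 and 9.10 at P13 (log2 change 0.44, SE 0.08, adjusted p = 0.00599). Sox2 and Nanog did not pass the test, at log2 changes of -0.05 and -0.33. Dppa2, a chromatin factor of early embryos, rose from 4.39, 4.14 and 4.36 to 5.71, 5.97 and 5.40 (log2 change 1.40, SE 0.17, adjusted p = 0.00228), and its partner Dppa4 by 0.61. L1td1, an RNA-binding protein of pluripotent cells, rose by 0.94. Epcam, an adhesion protein, fell by 0.33. Dppa2 and L1td1 kept the call whichever line was left out. Of 21 naive pluripotency genes 4 rose (Gbx2, Tbx3, Tet2 and Zfp42) and 1 fell (Klf4), with a median of 0.11. The called share of that list was 23.8%. Klf4, also a reprogramming factor, went from 8.27, 8.53 and 8.56 to 7.97, 8.00 and 7.95. Foxd3, a factor of the formative state, rose from 1.74, 0.68 and 1.90 to 4.36, 4.33 and 2.86. Of 19 formative and primed genes, however, 3 rose and 1 fell (21.1% called), with a median of 0.17. By line the medians of these 19 genes were -0.13, 0.15 and 0.33 in LV4, LV8 and LV16. The same refits called 4, 2 and 7 core genes and 0, 0 and 6 naive genes higher. In the XX lines 5 core genes rose and none fell, whereas 1 naive gene rose and 4 fell.

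Targets and regulators of signalling moved singly. Of 15 LIF and Stat3 genes 5 fell and 1 rose (40.0% called, against 15.0% of all genes). Socs3, the feedback inhibitor of LIF signalling, stood at 7.28, 7.85 and 7.66 log2 CPM at P7 and at 6.09, 6.15 and 6.61 at P13 (log2 change -1.31, SE 0.15, adjusted p = 0.00175), a call that held in every refit. The Stat3 targets Pim1 and Pim3 fell by 0.58 and 0.73. Secreted BMP antagonists went both ways. Nog, which encodes Noggin, fell from 119 reads over the P7 libraries to 16 at P13, whereas Grem1 and Fst rose by 2.41 and 1.27, and the ligand Bmp7 fell by 1.61. In the Wnt pathway Rnf43, a ligase that removes receptors, fell from 145 to 27 reads, and Tcf7 fell by 0.64. Notum, a secreted Wnt deacylase, rose from 3.60, 2.03 and 2.63 to 5.19, 4.79 and 3.79 and kept its call in every refit. Of the ERK genes Etv4, Ccnd1 and Spred1 rose by 1.21, 0.89 and 0.40, and Dusp6 fell by 0.54. The shares called in the Wnt, BMP and ERK lists were 31.2%, 26.3% and 35.0%, against 15.0% of all genes. Without LV8, 1 Wnt gene and no BMP or ERK gene was called. Nog, Fst and Dusp6 lost the call whichever line was left out. Of the LIF and Stat3 genes 3, 1 and 4 were called lower without LV4, LV8 and LV16 in turn. In the XX lines 5 LIF and Stat3 genes fell and 3 rose.

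The 3 lines shared the change unequally. The median absolute change over all genes tested was 0.33 in LV4, 0.36 in LV8 and 0.26 in LV16, and LV16 had the smallest change of the 3 in 1379 of the 2096 called genes. Across genes the changes correlated with r = 0.67 between LV4 and LV8, 0.43 between LV4 and LV16 and 0.50 between LV8 and LV16. Genes are not independent replicates, and these values are descriptions over 13978 genes. Taking genes in which 1 line lay at least 2 away from both others while those 2 differed by under 1, LV16 stood apart in 13, LV4 in 11 and LV8 in 3. Those of LV16 included Egr2, Fos, Fosb, Xaf1, Ddx60, Lgals3bp and Irgm1. LV16 moved the same way but less in Fos, Fosb, Lgals3bp and Irgm1, and the other way in Egr2, Xaf1 and Ddx60. Among those of LV4 were Ms4a14, Ctsk, Ifi207 and Itgam, genes of macrophages, bone resorption and interferon response, with larger increases in LV4. In these genes LV4 was the lowest line at P7, with Ms4a14 at -1.76 log2 CPM near the floor, and the highest at P13. In Gm43313, Gm43336, Gm45205 and Gm37738 LV4 fell and lay below the change of both other lines. For Itgam the changes were 3.96, 1.62 and 1.74 in LV4, LV8 and LV16. LV8 stood apart in Zmat4, Gbp4 and 3830417A13Rik. With a single library per line and passage none of this could be tested.

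Chromosome medians stayed close to that of all autosomes. Apart from chromosome 8, the autosomes lay between -0.068 and 0.060 in LV8 on the log2 scale. Chromosome 8, of which extra copies arise in cultured mouse pluripotent cells, lay at 0.12 in LV8, above all other autosomes of that line. It lay at 0.04 in LV4 and 0.02 in LV16. Among the XX lines the values were 0.00 in LV20, 0.14 in LV21 and 0.18 in LV22. The genes of chromosome 8 were called in 13.95% of cases, near the 15.0% of all genes.

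**Figure D5:**
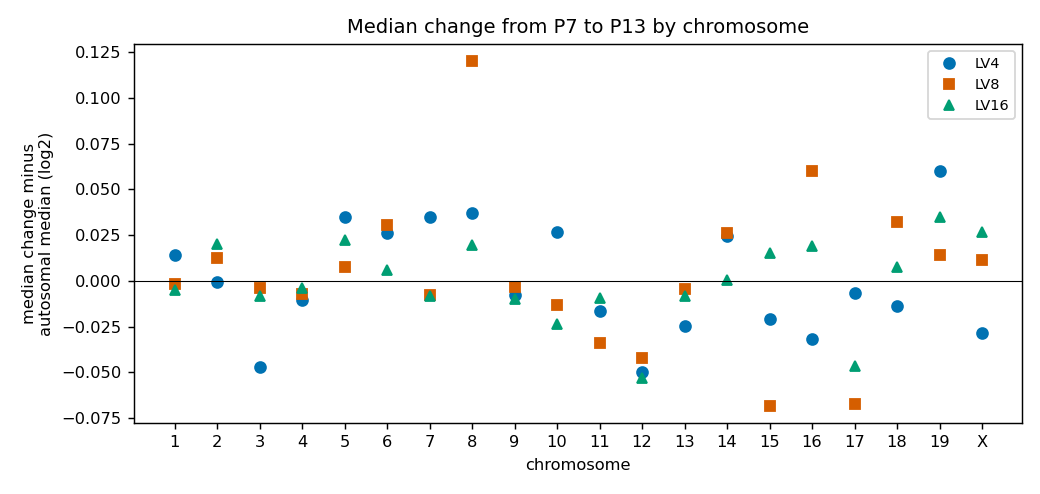
Median log2 change of each chromosome minus the autosomal median (vertical axis) in LV4, LV8 and LV16, by chromosome (horizontal axis). Chromosome 8 in LV8 lies at 0.12, above the range of -0.068 to 0.060 of the other autosomes of that line, and the X chromosome lies within the autosomal range in every XY line.

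X-linked genes were compared with the autosomes in each XY line. The median level of X-linked genes, less that of the autosomes, was -0.45, -0.59 and -0.49 on the log2 scale at P7 in LV4, LV8 and LV16 and -0.37, -0.48 and -0.52 at P13. The mean change was 0.05 ± 0.08 (SD, n = 3), with LV4 and LV8 higher and LV16 lower at P13. The exact two-sided permutation p was 0.5, but 3 pairs allow no p under 0.25, so this test could not have shown a change. Of 509 X-linked genes tested 39 rose and 23 fell (12.2%, against 15.0% of all genes). The median change of X-linked genes minus the autosomal median, the measure used above for chromosomes, is another quantity than this difference of median levels. By it the X chromosome lay at -0.03, 0.01 and 0.03 in LV4, LV8 and LV16. In the XX lines it lay at -0.68, -0.41 and -0.65 in LV20, LV21 and LV22.

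Part of the change was also seen in the XX lines. There 1551 genes (11.1%) changed from P7 to P13, and 675 genes changed in the same direction in both, 32.2% of those called in XY lines and 43.5% of those in XX lines. Another 9 changed in opposite directions. The change itself differed between XY and XX lines for 11 genes (0.0787%), 9 with the higher value in XY lines, and for 1587 genes at an unadjusted p under 0.05. Of the 9, the 8 other than Arl14epl are X-linked. Without the line as a block limma called 0 genes, with 1242 at an unadjusted p under 0.05. The Y-linked genes did not pass this test either, with Eif2s3y at an adjusted p of 0.0925.

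Mostly the XX lines moved in these genes. Usp26, an X-linked deubiquitinase of testis, changed by 0.11, 0.11 and 0.49 in LV4, LV8 and LV16 and by -1.38, -1.77 and -1.46 in LV20, LV21 and LV22. A few moved in the XY lines. Rhox5, an X-linked homeobox gene of germ line and placenta, stood at 3.58, 3.82 and 3.88 log2 CPM at P7 and at 4.54, 5.00 and 5.10 at P13 in the XY lines (log2 change 1.12, SE 0.13, adjusted p = 0.00182), and it changed by -0.46 in each XX line. Mcf2, an X-linked guanine nucleotide exchange factor, rose by 0.94 in the XY lines and fell by 0.87 in the XX lines. Arl14epl, on chromosome 18, stood at 4.72, 4.64 and 5.04 at P7 and at 6.00, 6.16 and 5.96 at P13 in the XY lines, with changes of -0.19, -0.06 and -0.10 in LV20, LV21 and LV22. In refits without LV4, without LV8 and without LV16, 1, 1 and 48 genes differed.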

How the data were processed

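The values the authors deposited are log2 CPM, so their unit is other than counts, and cover 16687 symbols. Per the labels' protocols RNA was extracted with TRIzol and read single-end after a stranded mRNA kit. Per the submitters' processing notes the builds were GRCm38 and mm10 and the tools featureCounts, edgeR and STAR 2.5.3a, and the role of each is not given in the sources used here. All values lay within 0.01 read of whole reads above the offset, so reads were recovered for depth and counting error. The 12 columns of ESC lines were not used.

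Changes were fitted with limma 3.58.1 (R 4.3.3) with a mean-variance trend on log2 CPM of the 12 iPSC libraries, with the line as a block and the passage change fitted separately for XY and XX lines, at 4 residual degrees of freedom. P-values are two-sided and adjusted by Benjamini-Hochberg over all 13978 genes tested, and a change at an adjusted p under 0.05 was called. The XX lines are not 3 more XY lines, and the fit assumes that their changes vary alike. The script was tested on simulated data. Pairing comes from the labels, which give the same line at both passages. The deviations of a line at P7 and P13 from the passage means correlated at 0.07 in LV4, 0.11 in LV8 and -0.04 in LV16. Between different iPSC lines they ran from -0.22 (LV21 at P7 with LV8 at P13) to 0.19 (LV21 at P7 with LV4 at P13). The values therefore do not show that a line resembled itself across passages more than it resembled other lines. Leaving out a library leaves its line without a pair, so lines were left out whole.

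The comparison and the 42 gene lists were chosen with earlier results of these data known. Named genes were the 15 largest called changes each way that met the criteria in the text, up to 4 called members per list and direction in lists with at least 2 called, pathway members of lists with called targets, up to 5 genes per line with the largest gap between lines, the sex-linked genes and up to 6 called differences from XX lines each way. Genes named beyond this rule, to complete a count or as known members that did not pass, were chosen after their values were seen. Some genes within these rules and lists are not reported here by name. Of the symbols 15225 matched RefSeq names (GRCm38.p6), 362 matched a synonym and 1100 did not match. Alternatives were no block, the 6 XY libraries alone, offsets of 1 and 5 CPM, other filters on low values, quantile normalization, voom on recovered reads and each line left out.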

Additional observations from a re-analysis of the deposited data

Results flagged for a closer look

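The change from P7 to P13 differed between XY and XX lines, by a test of the difference itself (limma, adjusted over all genes tested), in 8 genes named by the rule. Positive values mean a higher change in the XY lines. On the log2 scale the difference was 3.51 (SE 0.50, adjusted p = 0.0476) for Efhc2, 1.82 (SE 0.21, adjusted p = 0.0214) for Mcf2, 1.78 (SE 0.15, adjusted p = 0.00247) for Usp26, 1.58 (SE 0.19, adjusted p = 0.0214) for Rhox5 and 1.49 (SE 0.22, adjusted p = 0.0481) for Wdr45. These 5 are X-linked, and the XX lines are labelled XO at the late passage in the design text. Arl14epl, on chromosome 18, had a difference of 1.36 (adjusted p = 0.0254). In the other direction the difference was -1.03 for Plin3, a coat protein of lipid droplets (adjusted p = 0.0214), and -0.85 for Nav2 (adjusted p = 0.0479), and both rose in the XX lines, by 0.78 and 0.92. All 3 XY lines lay on one side of all 3 XX lines in these 8 genes, which the call itself largely fixes. The share of all genes with this property was not counted.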

How the results depend on the processing

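The 2096 calls stayed between 1823 and 2327 without the block (1823), with the 6 XY libraries alone with (2221) or without it (2327), with offsets of 1 or 5 CPM (2121 and 2092), a mean of at least 5 CPM (1894), quantile normalization (2081) and voom (2015). Without a filter on low values 1277 genes were called, of 16687 tested. Leaving out 1 line gave 75 to 2017 calls, with 482 without LV4, 75 without LV8 and 2017 without LV16. Of the 188 called genes named, none changed sign in any setting, 37 lost the call without the replicate block, 68 without a filter and 32 to 164 with a line left out, and 24 kept it whichever line was left out. Over all genes 68 were called in every setting. The 11 differences from XX lines became 0 without the replicate block, 0 without a filter, 7 at a mean of at least 5 CPM and 1 to 48 with a line left out. The genes that set LV4, LV8 and LV16 apart numbered 36, 21 and 56 at a gap of 1.5, 1, 0 and 6 at a mean of 10 CPM, and 1, 1 and 10 at an offset of 1 CPM. The cause of these shifts was not tested, apart from the smaller number of samples or the other number of genes by construction. The planned edgeR and DESeq2 alternatives were not run, since the deposited values are log2 CPM. Genes under about 1 CPM rest on few reads in each library.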

Other observations

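Amino acid transport and protein folding genes rose in part. Of 24 genes of amino acid and ER stress 7 rose and 1 fell (33.3% called, against 15.0% of all genes), with a median of 0.25. Slc7a11, the cystine carrier, stood at 1.15, 0.32 and 1.13 log2 CPM at P7 in LV4, LV8 and LV16 and at 3.04, 1.81 and 2.75 at P13 (log2 change 1.67, SE 0.33, adjusted p = 0.00974). Slc7a5, Trib3 and the chaperone Pdia4 rose by 0.57, 0.73 and 0.46, and Asns, asparagine synthetase, fell by 0.35. Of 12 heat shock genes 3 rose and none fell (25.0% called). Hsph1 went from 7.88, 7.69 and 7.99 to 8.56, 8.44 and 8.61 (log2 change 0.68, SE 0.08, adjusted p = 0.00173), and Hspd1 and Hspa8 rose by 0.47 and 0.36. Without LV4, LV8 and LV16 in turn 1, 0 and 6 genes of the first list and 2, 1 and 3 of the second were called higher. In the XX lines the medians of these lists were 0.03 and -0.06.

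Of 32 imprinted genes 3 rose and 3 fell, a share (18.8%) near the 15.0% of all genes, with a median of -0.002. Peg10 and its neighbour Sgce, both expressed from the paternal copy, fell by 0.73 and 1.24, and H19, a maternally expressed RNA, fell by 0.95. Zdbf2, Snrpn and Peg13 rose by 0.83, 0.65 and 1.26. Zdbf2 stood at 8.25, 7.13 and 7.93 at P7 and at 8.71, 8.67 and 8.42 at P13, without overlap. Of 25 germ line genes that DNA methylation silences 3 rose, among them Tex19.1 (by 0.93), and 1 fell, Sycp3 (by 1.30), and this share (16.0%) was also near that of all genes. Of 16 genes of the methylation machinery Dnmt3a, Tet2, Setdb1 and Trim28 rose and Uhrf2 fell (31.2% called). Dnmt3a was at 7.58, 7.27 and 7.22 and then at 7.70, 7.73 and 8.54, with the largest rise in LV16. Of the lysosomal proteases Ctsb and Ctsd rose by 1.00 and 0.47, and the sialidase Neu1 fell by 1.15. Of 24 p53 targets 3 rose and 5 fell (33.3% called), Ddit4 furthest and the death receptor Fas upward by 1.73.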
